A study of Mus musculus with 8 samples.

Results

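Small nucleolar RNA (snoRNA) host genes were examined in CCR6+ group 3 innate lymphoid cells (ILC3s) of the mouse large intestine. Their members were the 9 genes Gas5, Snhg1, Snhg3, Snhg5, Snhg6, Snhg8, Snhg12, Snhg15 and Snhg18, of 27179 genes in the count table. They were taken by name, through the symbols of the Entrez gene IDs. Snhg15 was selected on its measured level, which differed between the groups compared here, and the question was whether it stands apart from the other host genes. Its difference is therefore given as a description, and the p-values quoted are those of a fit over the whole table.

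ILC3s are innate lymphocytes that make IL-22 at barrier surfaces. The CCR6+ subset resembles lymphoid tissue inducer cells. Zbtb46 encodes a zinc finger protein used to mark classical dendritic cells. The control group, called sufficient below, was 4 C57BL/6 mice with loxP-flanked Zbtb46 alleles and no Cre (Zbtb46 f/f, labelled wild type, replicates 1 to 4). The group called deficient was 4 C57BL/6 mice that also carried RorcCre (labelled Zbtb46 KO, replicates 5 to 8). Both groups carry the loxP-flanked alleles, and RorcCre also acts in lineages other than ILC3s, T cells among them. All mice were at steady state, each gave 1 library, and no age or sex is given in the sources used here.

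SnoRNAs guide the chemical modification and processing of ribosomal RNA. Box C/D snoRNAs guide 2′-O-methylation and box H/ACA snoRNAs guide pseudouridylation. Most mammalian snoRNAs are cut out of introns, and a host gene is a gene whose introns hold them. Some hosts encode proteins of the translation machinery, while the noncoding hosts yield a spliced RNA with little coding capacity. Several of those spliced RNAs are known to start with a run of pyrimidines, as ribosomal protein mRNAs do, and to be degraded by nonsense-mediated decay while they are translated. Gas5 was named for its rise in growth-arrested cells, and Snhg15 RNA is known as a short-lived transcript.

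The GENCODE M21 annotation of GRCm38 (the build also called mm10) placed 28 snoRNAs within the spans of the 9 genes, all on the host's strand. Gas5 held 8, Snhg1 held 8, Snhg12 held 4, Snhg3 and Snhg5 held 2 each, and the other 4 hosts held 1 each. Of these, 3 are shown because their hosts are the 3 members with the highest levels. Capitals mark the boxes, which a search found in the sequence: the C box and the D box of the C/D snoRNAs, and the ACA box of the H/ACA snoRNA, which lies 3 bases from its 3′ end. Snora9 is at chr11:6528033-6528165 on the minus strand in Snhg15, Snord47 at chr1:161038082-161038158 on the plus strand in Gas5, and Snord50b at chr9:88521797-88521868 on the minus strand in Snhg5.
Snora9: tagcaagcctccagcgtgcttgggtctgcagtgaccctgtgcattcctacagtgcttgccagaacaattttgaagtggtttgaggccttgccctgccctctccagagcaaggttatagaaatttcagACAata
Snord47: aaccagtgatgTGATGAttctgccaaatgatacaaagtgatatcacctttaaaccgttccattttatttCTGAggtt
Snord50b: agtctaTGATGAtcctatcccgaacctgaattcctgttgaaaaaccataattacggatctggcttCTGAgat

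The first bases of the host RNAs are shown next, because a pyrimidine run at the start is a feature the family is known for and because the run of Snhg15 was short. RefSeq promoter entries of GRCm38.p6 (250 bases before to 50 bases after the annotated start) were found for 8 of the 9 members, with 9 entries in all since Gas5 has 2. Each line below gives 80 bases, from 30 before the start, and capitals mark the longest run of C and T that lies within 20 bases of the start. The windows are chr11:6528711-6528790 (minus strand) for Snhg15, chr1:161035136-161035215 (plus) for the downstream Gas5 start, chr9:88522848-88522927 (minus) for Snhg5, chr19:8723457-8723536 (plus) for Snhg1, chr4:132308648-132308727 (plus) for Snhg12 and chr3:123508287-123508366 (minus) for Snhg8.
Snhg15: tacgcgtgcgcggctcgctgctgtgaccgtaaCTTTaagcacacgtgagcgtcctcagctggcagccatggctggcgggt
Gas5: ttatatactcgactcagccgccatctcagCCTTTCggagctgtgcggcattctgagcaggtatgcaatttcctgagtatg
Snhg5: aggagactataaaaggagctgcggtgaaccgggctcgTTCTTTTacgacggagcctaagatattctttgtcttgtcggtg
Snhg1: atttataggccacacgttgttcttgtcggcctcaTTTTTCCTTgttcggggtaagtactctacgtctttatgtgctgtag
Snhg12: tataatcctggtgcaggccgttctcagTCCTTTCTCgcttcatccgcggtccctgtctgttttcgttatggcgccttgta
Snhg8: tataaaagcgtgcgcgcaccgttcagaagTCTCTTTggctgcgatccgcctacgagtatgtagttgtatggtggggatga

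The longest run was 10 bases in Snhg18, 9 in Snhg1 and Snhg12, 7 in Snhg5 and Snhg8, 6 at the downstream Gas5 start, 5 in Snhg3 and 4 in Snhg15. At the upstream Gas5 start it was 3. A run of at least 6 was thus present in 6 of the 9 entries, against 37.5% of all 32851 mouse promoter entries, whose median longest run was 5 bases. Snhg15 and the upstream Gas5 start lay below that median.

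The Snhg15 promoter also held 2 motifs that were looked for after its sequence had been read. One is the cyclic AMP response element TGACGTCA, at -88 counted from 0 at the annotated first base, and the other is the E-box CACGTG, at 11. Both read the same on either strand, and they do not overlap. TGACGTCA was found in 588 of the 32851 promoters (1.79%) and in 2 of the 9 member entries, the other being the downstream Gas5 start at -46. CACGTG was found in 7.15% of all promoters and among the members in Snhg15 alone. Both motifs together were found in 56 promoters (0.170%). The whole Snhg15 entry (chr11:6528711-6529010, minus strand) follows, with both motifs in capitals.
Snhg15 promoter: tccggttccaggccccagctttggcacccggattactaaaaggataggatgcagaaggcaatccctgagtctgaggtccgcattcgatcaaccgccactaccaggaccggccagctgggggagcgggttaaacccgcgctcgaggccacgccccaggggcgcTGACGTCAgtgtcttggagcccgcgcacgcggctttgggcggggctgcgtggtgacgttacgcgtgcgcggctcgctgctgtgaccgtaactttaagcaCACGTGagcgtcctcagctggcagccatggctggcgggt

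**Figure D1:**
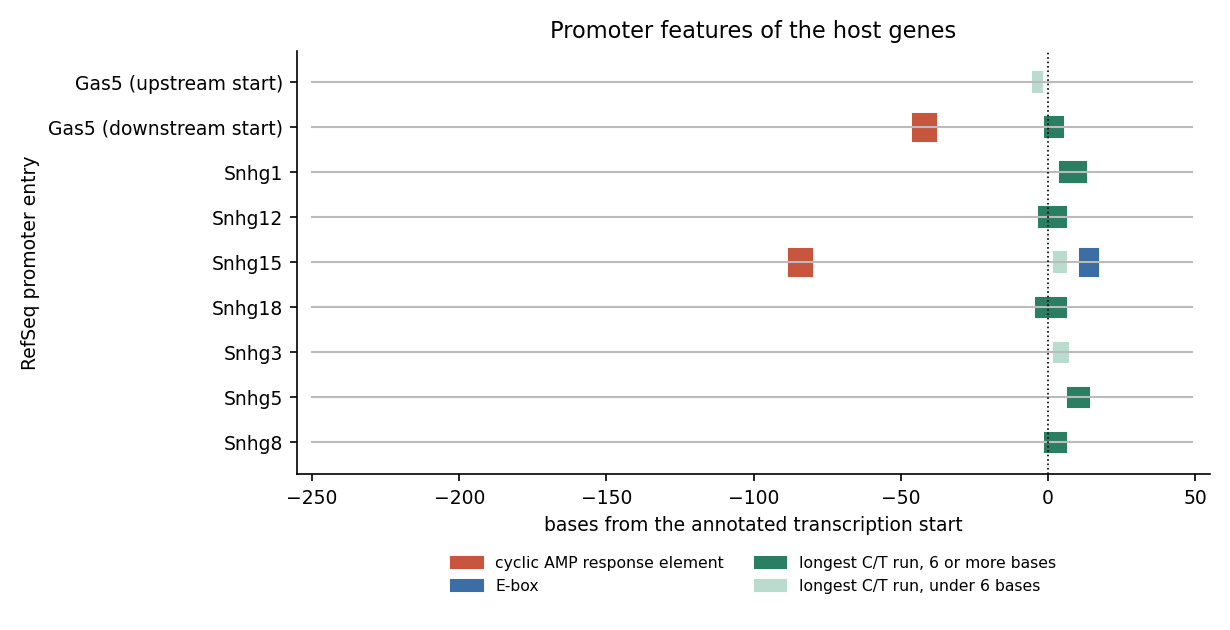
Position of the longest C/T run within 20 bases of the start, the cyclic AMP response element and the E-box in the 9 RefSeq promoter entries of 8 host genes, in bases from the annotated transcription start (dotted line). Snhg15 has both motifs and a run of 4 bases, and the Gas5 downstream start has the cyclic AMP response element and a run of 6.

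Total counts were 25328231 to 33760743 per library, so that a count of 0 allows up to 0.0889 to 0.118 CPM (counts scaled to a common library size of 1e+06), taken as 3 counts of the total. Levels below are CPM on library sizes scaled by trimmed mean of M-values (TMM), with mean ± SD over n = 4 mice in each group. Zbtb46 itself had 8.02, 48.8, 88.9 and 26.6 CPM in sufficient replicates 1 to 4 and 4.82, 0.532, 3.19 and 0.125 CPM in deficient replicates 5 to 8, so every deficient library was lower than every sufficient one. The 12 ILC3-defining markers included Ccr6, Il7r and Il22, and none was at 0 throughout. They summed to 24681 to 36279 CPM in sufficient and 23460 to 28971 CPM in deficient libraries, with overlap. Most of this sum was Il22, with 21238 ± 4647 and 15419 ± 2502 CPM. Summed markers of ILC2s and, with overlap, of NK cells and ILC1s were higher in deficient libraries, while the single markers were mixed. Of 3 tested ILC2 markers, 1 was fitted higher and 2 lower in deficient cells. Of 4 tested NK cell and ILC1 markers, 2 were fitted higher and 2 lower. The 5 ILC2 markers summed to 47.2, 249, 132 and 212 CPM in sufficient and 278, 273, 411 and 410 CPM in deficient libraries, so that every deficient library was higher. Most of that sum was Areg, which encodes the growth factor amphiregulin, with 146 ± 75.4 and 335 ± 71.9 CPM. The 7 NK cell and ILC1 markers, 1 of them at 0 throughout, summed to 49.8 to 248 CPM and 189 to 574 CPM, with overlap. The part of either signal in the host gene levels below was not tested. Deficient replicates 5 and 7 stood out for the 8 myeloid markers, with sums of 374 and 780 CPM, where no other library exceeded 88.9 CPM. Sufficient replicate 2 stood out for the 7 epithelial markers, with 1285 CPM against 28.6 CPM or less. The sum of the 6 stromal markers was 772 CPM in sufficient replicate 1, 417 CPM in deficient replicate 7 and 13.97 to 115 CPM in the rest. The 8 T cell markers gave 57.9 to 144 CPM in sufficient and 29.2 to 132 CPM in deficient libraries, the 8 dendritic cell markers 67.8 to 105 and 65.4 to 249 CPM, and the 6 B and plasma cell markers 5.90 to 136 and 2.03 to 79.3 CPM.

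Gas5, Snhg15 and Snhg5 made up most of the host gene RNA in both groups. By mean CPM they ranked 3, 4 and 5 among the 206 tested genes of RefSeq's lncRNA class, after Malat1 and AW112010. Dividing by the median length of the spliced GENCODE transcripts put Gas5 at 3657 ± 169 CPM per kilobase in sufficient cells, Snhg15 at 2345 ± 495 and Snhg5 at 1284 ± 209. The remaining 6 members lay at 232 CPM per kilobase or below, in the order Snhg1, Snhg8, Snhg6, Snhg3, Snhg12 and Snhg18. In deficient cells Gas5 had 2289 ± 583, Snhg5 961 ± 166 and Snhg15 919 ± 160 CPM per kilobase, and the last 2 did not differ beyond their spread. Among neighbours in this order, Snhg1 and Snhg8, Snhg8 and Snhg6, and Snhg3 and Snhg12 also lay within 1 SD of each other's range in both groups, and Snhg12 and Snhg18 in sufficient cells. The order of the top 3 depends on the length taken. The medians were 502 bases for Gas5, without its 20 retained-intron transcripts, 597 for Snhg15 and 781 for Snhg5. All annotated exons together cover 3760, 1359 and 1730 bases. Dividing by these lengths would put Snhg15 first and Gas5 last of the 3 in sufficient cells.

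Gas5, the host of Snord47 and 7 other snoRNAs (chr1:161034601-161038539, plus strand), had 1744, 1798, 1861 and 1941 CPM in the sufficient libraries. In the deficient libraries it had 1049, 1486, 801 and 1260 CPM. The sufficient mice lay close together and all above the deficient mice, which spread more widely. The means were 1836 ± 85.0 and 1149 ± 293 CPM, a fitted log2 fold (deficient over sufficient, here and below) of -0.68 with a 95% interval of -1.14 to -0.21. edgeR's Benjamini-Hochberg adjusted p over all tested genes was 0.778.

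Snhg15, the host of the H/ACA snoRNA Snora9 (chr11:6525591-6528760, minus strand), had 1703, 1209, 1597 and 1092 CPM in sufficient replicates 1 to 4. It had 438, 633, 500 and 623 CPM in deficient replicates 5 to 8. The groups did not overlap: the highest deficient library, at 633 CPM, lay well under the lowest sufficient one, at 1092 CPM. The means were 1400 ± 296 and 548 ± 95.3 CPM, a fitted log2 fold of -1.35 (standard error 0.22) and a fold of 0.392 (95% interval 0.279 to 0.550). edgeR's adjusted p over all tested genes was 0.191, which does not pass 0.05.

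Snhg5, the host of Snord50a and Snord50b (chr9:88521052-88522897, minus strand), had 949, 962, 1238 and 862 CPM in sufficient libraries. It had 768, 909, 593 and 734 CPM in deficient libraries. Deficient replicate 6 lay above sufficient replicate 4, so the groups overlapped. The means were 1003 ± 163 and 751 ± 130 CPM, with a log2 fold of -0.42 (95% interval -0.87 to 0.03).

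Deficient replicates 5 and 7, which had the highest myeloid sums, also had the lowest Snhg15 and Gas5 levels of all 8 libraries. Without them the log2 fold was -1.16 for Snhg15, -0.42 for Gas5 and -0.29 for Snhg5, with edgeR adjusted p of 0.975, 0.975 and 1.00. The part of the myeloid signal in these levels was not tested. In sorted populations, fewer cells of a type and less RNA per cell cannot be told apart.

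Snhg1, the host of Snord22 and 7 further C/D snoRNAs (chr19:8723487-8726326, plus strand), had 89.8, 149, 172 and 99.7 CPM in sufficient libraries and 72.7, 178, 80.6 and 69.7 CPM in deficient ones. Deficient replicate 6 had the highest level of all, and the other 3 deficient libraries had the lowest. The log2 fold was -0.35 (95% interval -1.27 to 0.58), and it was -0.78 without deficient replicate 6 and -0.16 without sufficient replicate 3.

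Snhg8, the host of Snora24 (chr3:123507552-123508336, minus strand), had 70.8, 30.9, 66.6 and 87.3 CPM in sufficient and 53.5, 13.97, 90.2 and 47.0 CPM in deficient libraries. Its highest and its lowest library were both deficient ones. Its log2 fold was -0.32 (95% interval -1.73 to 1.09), with -0.74 without deficient replicate 7 and -0.015 without deficient replicate 6.

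Snhg6, the host of Snord87 (chr1:9942025-9944118, minus strand), had 59.0, 40.9, 52.0 and 42.7 CPM in sufficient and 48.5, 69.0, 28.2 and 63.8 CPM in deficient libraries. It was the only tested member with a fitted value above 0, a log2 fold of 0.11 (95% interval -1.06 to 1.28).

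Snhg12 and Snhg3 are near each other on chromosome 4 and were both at low levels. Snhg12, which holds Snora16a, Snora44, Snora61 and Snord99 (chr4:132308678-132311024, plus strand), had 53.1, 22.2, 21.9 and 1.45 CPM in sufficient and 10.02, 0.608, 11.01 and 27.7 CPM in deficient libraries. It varied more within each group than between them, with a log2 fold of -1.001 (95% interval -4.00 to 2.00). That fold was -0.31 without sufficient replicate 1, -1.77 without deficient replicate 8 and 0.10 without sufficient replicate 1 and deficient replicate 6 together. Snhg3, which holds the 2 Snora73 genes (chr4:132351933-132353686, minus strand), had 15.3, 10.8, 20.8 and 13.9 CPM in sufficient and 8.73, 17.5, 17.6 and 12.4 CPM in deficient libraries, a log2 fold of -0.12 (95% interval -2.37 to 2.14).

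Snhg18, the host of Snord123 (chr15:32240568-32244662, minus strand), had 22.2 and 66.0 CPM in sufficient replicates 1 and 2 and 0 counts in the other 6 libraries. It did not pass the filter on low counts and has no value in the main fit. Sufficient replicate 1 had the highest stromal sum and sufficient replicate 2 the highest epithelial sum, while deficient replicate 7, with a stromal sum of 417 CPM, had no Snhg18 count. The part of such cells in the Snhg18 counts was not tested.

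**Figure D2:**
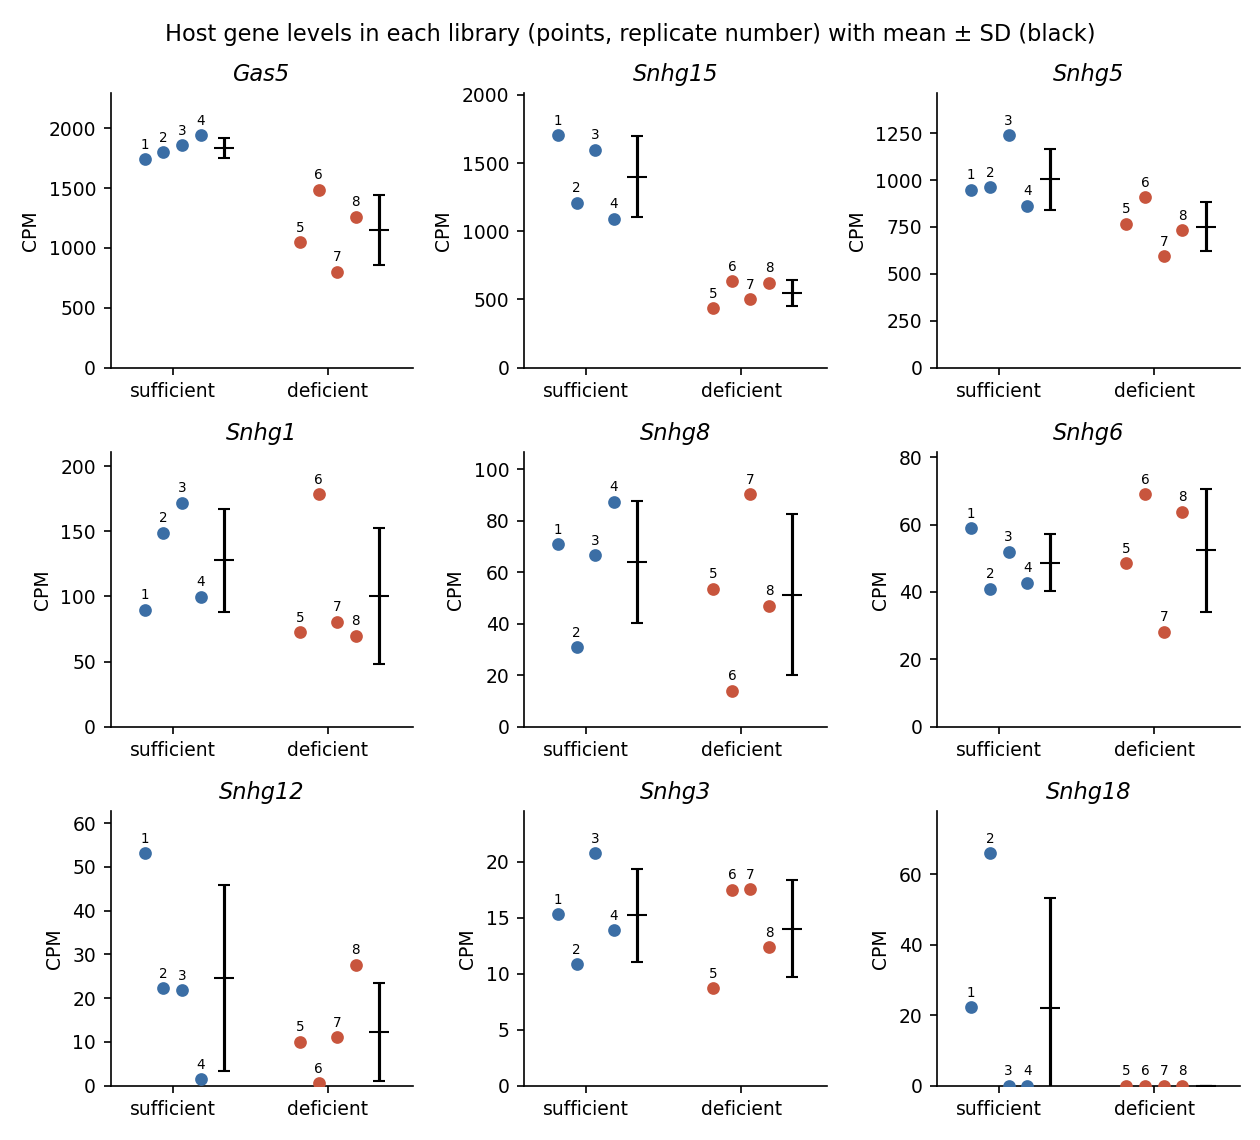
Level of each of the 9 host genes in CPM (vertical axis, from 0, with its own scale per gene) in the 4 sufficient and the 4 deficient libraries, points numbered by replicate, with mean ± SD in black. The groups separate in Gas5 and Snhg15, and Snhg18 has counts in sufficient replicates 1 and 2 only.

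Of the 9 members, 8 passed the filter, and of these 7 had a fitted value below 0 and 1 above. The median log2 fold of the 8 was -0.38, beside 0.02 over all 8878 tested genes, 49.1% of which were below 0. Among the 1828 genes whose mean over all libraries reached 100 CPM, the class to which Gas5, Snhg15, Snhg5 and Snhg1 belong, the median was -0.06 and 55.7% were below 0. No member passed edgeR's threshold, where 0.00% of all tested genes were called lower. Snhg15 and Gas5 passed an unadjusted p of 0.05, as did 2.00% of tested genes in the lower direction and 4.10% in either. These 2 were also the members whose groups did not overlap with deficient lower, which held for 2.10% of all tested genes and 4.16% of the abundant ones. In a fit to the abundant genes alone 1 member, Snhg15, was called (adjusted p 0.0192 in edgeR), where 0.164% of the genes were called lower and 0.0547% higher. That call was lost without any one of replicates 1, 3, 5, 7 and 8 (adjusted p 0.0933 to 0.156 in edgeR) and without replicates 5 and 7 together (0.564). DESeq2 called 2 members, Snhg15 (adjusted p 0.000361) and Snhg18, where 1.17% of genes were called lower. Because this contrast chose Snhg15, nothing is read from these shares.

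Within that abundant class Snhg15 had the fitted fold of rank 19 of 1828 from the lowest, at percentile 1.04, and Gas5 that of rank 161, at percentile 8.81. Snhg5 had rank 374 and Snhg1 rank 462. The Snhg15 interval, -1.84 to -0.86, overlapped that of Gas5 between -1.14 and -0.86 and barely reached that of Snhg5, whose lower end was -0.87.

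**Figure D3:**
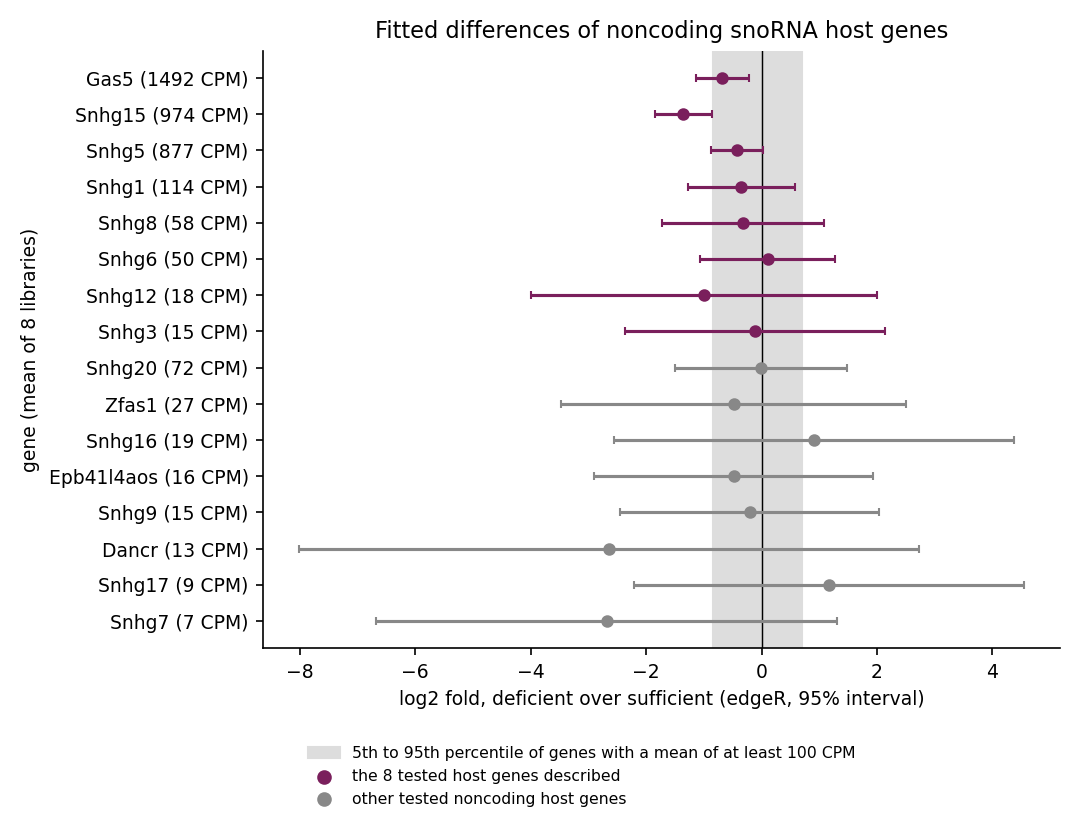
Fitted log2 fold (deficient over sufficient, horizontal axis) with its 95% interval from edgeR for the 8 tested host genes and 8 other tested noncoding hosts, each with its mean CPM over 8 libraries, beside a grey band from percentile 5 to 95 of the abundant genes. The intervals of Gas5 (-1.14 to -0.21) and Snhg15 (-1.84 to -0.86) lie below 0, and the intervals widen toward the genes with few CPM.

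Ratios within a library cancel its scaling, and they were used to set Snhg15 against the other hosts. Snhg15 made up 36.2, 28.2, 31.7 and 26.4% of the summed counts of the 9 genes in the sufficient libraries. In the deficient libraries it made up 17.9, 19.1, 23.6 and 21.95%. The groups did not overlap, with means of 30.6 ± 4.33% and 20.6 ± 2.61%, a ratio of 0.674. This ratio lay between 0.642 and 0.717 when each library was left out in turn. Leaving Gas5 out of the sum gave 51.5 ± 4.06% and 35.9 ± 3.63%.

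Against Snhg5 the order of the 2 genes changed between the groups. Snhg15 counts divided by Snhg5 counts were 1.795, 1.26, 1.29 and 1.27 in sufficient libraries and 0.570, 0.696, 0.845 and 0.849 in deficient libraries. Snhg15 thus exceeded Snhg5 in each of the 4 sufficient mice and was below it in each of the 4 deficient mice.

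Against Gas5 the separation was not complete. Snhg15 over Gas5 was 0.977, 0.672, 0.858 and 0.563 in sufficient libraries and 0.417, 0.426, 0.625 and 0.494 in deficient libraries. Deficient replicate 7 lay above sufficient replicate 4, and the means were 0.767 ± 0.185 and 0.491 ± 0.0962. Gas5 itself had a share of 40.7 ± 4.72% and 42.5 ± 3.29% of the summed counts, while that of Snhg5 was 22.01 ± 1.98% in sufficient and 28.2 ± 2.32% in deficient cells, without overlap. Shares of 1 sum are linked, so a lower Snhg15 share raises those of other genes. The mean Snhg5 level itself was lower in deficient cells, at 751 ± 130 against 1003 ± 163 CPM, with overlap.

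**Figure D4:**
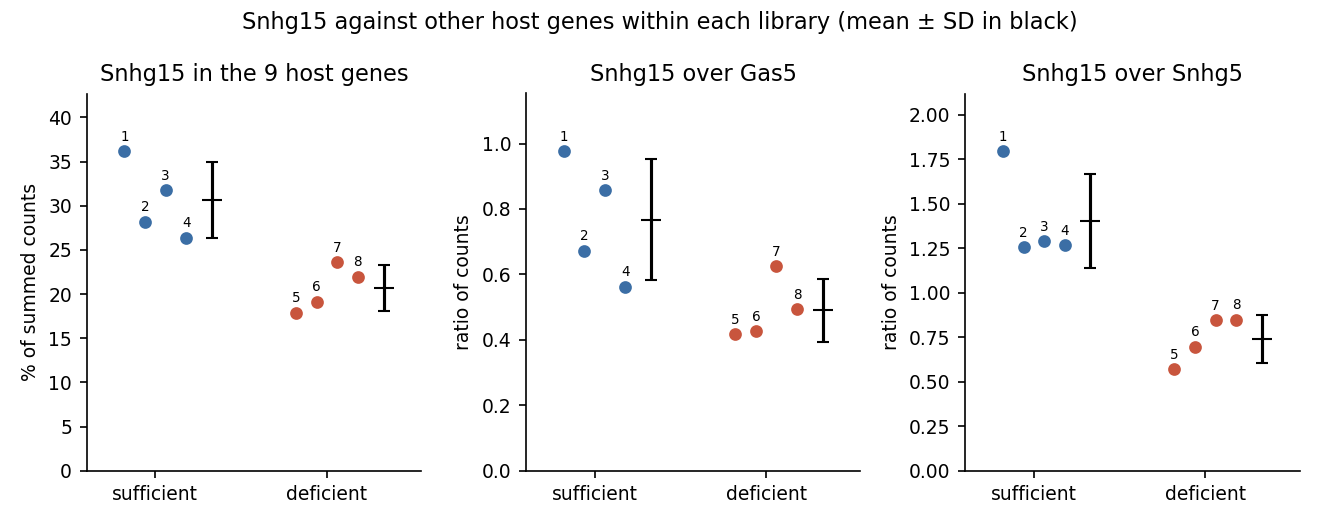
Snhg15 as a percentage of the summed counts of the 9 host genes, and as a ratio of counts to Gas5 and to Snhg5 (vertical axes from 0), in each library, numbered by replicate, with mean ± SD in black. The groups separate for the share and for the ratio to Snhg5, and they overlap for the ratio to Gas5.

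The lower Snhg15 level was not the whole of the difference in host gene RNA. The 9 genes summed to 4541 ± 404 CPM in sufficient and 2679 ± 511 CPM in deficient cells, and the 8 genes without Snhg15 to 3141 ± 197 and 2130 ± 438 CPM. The second sum lay at 3003 to 3432 CPM in sufficient and 1621 to 2674 CPM in deficient libraries, and most of its difference was Gas5. Malat1, the most abundant noncoding transcript, had 58682 ± 13496 and 46367 ± 30479 CPM, with its highest value of 89385 CPM in deficient replicate 6 and its lowest of 19539 CPM in deficient replicate 7. Among the 17 abundant genes of the lncRNA class, 15 had a fitted value below 0, with a median log2 fold of -0.42. Of all 1828 abundant genes 55.7% were below 0, and 4.16% had deficient lower without overlap. The groups of 3 of the 17 did not overlap: Gas5, Snhg15 and Trmt61b, a tRNA methyltransferase gene that RefSeq lists in this class.

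Of the 12 other noncoding hosts on the list, 8 passed the filter, 6 with a fitted value below 0 and 2 above, with a median of -0.34. All were at low levels, the highest being Snhg20 with means of 72.1 ± 28.7 and 71.8 ± 58.5 CPM (sufficient first, here and below). Snhg7 had 12.7, 5.17, 20.2 and 10.3 CPM in sufficient and 0.143, 0, 3.91 and 3.47 CPM in deficient libraries. It was the one gene among the 8 whose groups did not overlap, as held, with deficient lower, for 2.10% of all tested genes. Its log2 fold of -2.68 had a standard error of 1.796. Dancr had 23.1 ± 19.0 and 3.71 ± 4.88 CPM, and its libraries ranged from 0 to 39.9 and from 0 to 10.3 CPM. Zfas1, a host of C/D snoRNAs, had 31.8 ± 15.9 and 22.8 ± 21.95 CPM. Epb41l4aos had 18.7 ± 5.13 and 13.3 ± 12.8 CPM, and Snhg9 had 15.5 ± 3.61 and 13.5 ± 3.55 CPM. The 2 with a fitted value above 0 were Snhg16, at 13.5 ± 13.1 and 25.4 ± 21.8 CPM, and Snhg17, at 5.40 ± 8.89 and 12.1 ± 4.70 CPM.

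Protein-coding snoRNA hosts were nearer to the background. All 30 on the list were tested, with 21 below 0, 9 above and a median log2 fold of -0.13. Of them 0 passed edgeR's threshold, which no tested gene passed. Eif4a2 encodes an RNA helicase of translation initiation. It was the one whose groups did not overlap, as held, with deficient lower, for 2.10% of all tested genes and 4.16% of the abundant ones. It had 424, 432, 456 and 522 CPM in sufficient and 315, 417, 114 and 342 CPM in deficient libraries, a log2 fold of -0.63 (95% interval -1.40 to 0.15). Rpl7a had 24.5 ± 15.8 and 8.05 ± 3.95 CPM. Without ribosomal protein genes, 13 coding hosts were left, 7 of them below 0, with a median of -0.02. Ribosomal protein mRNAs were below 0 in 61 of 76 and above in 15, with a median of -0.17. Several noncoding host RNAs are known to start with pyrimidines as these mRNAs do. The longest run near the Snhg15 start was 4 bases. Whether such a run bears on these levels was not tested. Rpl37 had 279 ± 64.7 and 208 ± 22.9 CPM. Many ribosomal protein genes have near-identical pseudogenes, and nothing used here states how reads that map to several places were counted.

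Genes of the snoRNA machinery gave no call, where edgeR called 0 of all 8878 tested genes. The 3 tested core proteins of C/D particles, of 4 on the list, were all below 0: Snu13 had 83.7 ± 27.0 and 55.9 ± 22.4 CPM, Nop58 133 ± 44.5 and 93.8 ± 72.4 CPM, and Nop56, itself a snoRNA host, 53.8 ± 27.0 and 49.8 ± 36.3 CPM. Of the 4 H/ACA core proteins 3 were below 0, with Nop10 at 626 ± 105 and 540 ± 35.3 CPM and Gar1 at 4.11 ± 4.30 and 2.09 ± 2.46 CPM. Of 9 tested assembly factors 5 were below 0, with a median of -0.11. Nolc1, which encodes a nucleolar and Cajal body chaperone of snoRNA particles, had 27.3 ± 17.9 and 48.1 ± 32.1 CPM.

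Factors of nonsense-mediated decay, the route by which several host RNAs are known to be degraded, were below 0 in 11 of 19 tested genes, with a median of -0.20. Magoh, a core protein of the exon junction complex, had 1038 ± 115 and 722 ± 113 CPM and a log2 fold of -0.52. Its groups alone did not overlap, as held, with deficient lower, for 2.10% of all tested genes and 4.16% of the abundant ones. edgeR's adjusted p for Magoh was 0.983. Etf1, a translation release factor, had 365 ± 71.8 and 272 ± 57.5 CPM. Among 6 tested coding genes whose mRNAs are known to respond to that decay route, 3 were below 0 and 3 above. Gadd45b had 132 ± 39.4 and 73.3 ± 28.4 CPM, and Upp1 had 56.9 ± 42.0 and 148 ± 82.8 CPM. Of 11 other tested lncRNAs 6 were below 0, with a median of -0.01. The 2 with the smallest p lay above 0: Mir22hg at 104 ± 14.3 and 183 ± 79.8 CPM and Neat1 at 52.5 ± 21.4 and 95.03 ± 53.7 CPM.

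Genes next to the hosts were read to see how far a difference followed the locus. Zbtb37, which overlaps the upstream Gas5 start by 264 bases, had at most 3.68 CPM, and Mcmdc2, which overlaps Snhg6 by 1582 bases, at most 0.703 CPM. The library kit does not mark strand, so reads in bases that genes on opposite strands share could belong to either gene.

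The nearest coding neighbour of Snhg15 is Myo1g, a class I myosin gene of blood cells that lies 4631 bases away on the same strand. Myo1g had 85.8, 94.8, 35.2 and 36.1 CPM in sufficient and 73.0, 219, 137 and 71.6 CPM in deficient libraries, with overlapping groups and a log2 fold of 0.99 (95% interval -0.18 to 2.16). Slc3a2, an amino acid transporter subunit gene 118 bases from Snhg1, had 301 ± 111 and 336 ± 126 CPM. Trnau1ap, 739 bases from Snhg12, had 76.3 ± 45.6 and 68.4 ± 45.3 CPM. The coding neighbours Wdr74, Rcc1, Phactr4, Prss12, Rab42 and Sema5a, each within 10 kb of a host, had means of at most 12.5 CPM in either group.

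Genes whose level followed that of Snhg15 most closely were sought among the other 1827 abundant genes. Over the 8 libraries the highest Pearson correlations of log2(CPM + 1) were those of Med31 (0.982), Sub1 (0.979), Atp5md (0.962), Cwc25 (0.922) and Zc3h11a (0.921). These values share the library scaling and contain the difference between the groups. After the group means were taken off, the highest were Brwd1 (0.993), Stk16 (0.931), Atpif1 (0.905), Sub1 (0.903) and Tmx3 (0.892). Sub1, which encodes a transcriptional coactivator, was the one gene in both sets of 5, and its means were 16806 ± 2260 and 11464 ± 822 CPM. Both sets are the highest of 1827 correlations over the same 8 libraries. What such a search gives by chance was not tested.

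Rows of hosted snoRNAs could be read for few hosts. They hold reads from a low-input cDNA kit, and how far they follow the level of mature snoRNAs was not tested. Of the 28 snoRNAs within the 9 spans, 11 had a row of their own in the count table. Snora9, the snoRNA of Snhg15, and Snord50a and Snord50b of Snhg5 were not among them. Snord47, in Gas5, had 19.4, 13.7, 5.84 and 22.5 CPM in sufficient and 6.54, 8.77, 12.7 and 6.19 CPM in deficient libraries, with overlapping groups. Snord22, in Snhg1, had 11.3 ± 2.22 and 6.19 ± 2.92 CPM, also with overlap. The 2 Snora73 rows and Snora24 had 0 counts in every library, and the other 6 had means of at most 2.57 CPM in either group. A read within such a snoRNA could have been counted to it or to an unspliced host RNA.

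The 2 highest snoRNA rows were far above the rest, and both are for snoRNAs that are not cut from introns and have promoters of their own. They are Snord13 (U13), which acts in the maturation of 18S ribosomal RNA, and Snord118 (U8), which acts in that of 5.8S and 28S ribosomal RNA. They were chosen after their values had been seen. Neither overlaps a coding gene. The sequence of Snord118 (chr11:69073427-69073561, plus strand of GRCm38) is given because no host transcript contains it, with the C and D boxes in capitals.
Snord118: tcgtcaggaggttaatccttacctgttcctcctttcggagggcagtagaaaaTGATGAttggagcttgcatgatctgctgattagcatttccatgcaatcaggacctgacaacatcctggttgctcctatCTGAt

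Snord13 had 532, 507, 354 and 496 CPM in sufficient and 670, 972, 811 and 1005 CPM in deficient libraries. Every deficient library lay above every sufficient one, as it did in 2.26% of all tested genes and 2.13% of the abundant ones. The means were 472 ± 80.2 and 865 ± 155 CPM, a log2 fold of 0.87 (95% interval 0.40 to 1.35) with an edgeR adjusted p of 0.515. Snord118 had 184, 160, 128 and 221 CPM in sufficient and 255, 408, 250 and 258 CPM in deficient libraries, again without overlap. Its means were 173 ± 39.3 and 293 ± 77.0 CPM, a log2 fold of 0.76 (95% interval 0.14 to 1.37) with an edgeR adjusted p of 1.00.

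These 2 rows gave 77.5 to 85.3% of the CPM of all 123 snoRNA rows in sufficient and 86.6 to 93.7% in deficient libraries. The other 121 rows summed to 123 to 194 CPM and 70.8 to 172 CPM. Among other small RNAs with their own promoters, the groups overlapped for Rny1, Rn7sk and Rpph1. Rny1 had 9.17 ± 4.40 and 22.6 ± 6.496 CPM, Rn7sk 35.7 ± 19.1 and 27.0 ± 10.9 CPM, and Rpph1 11.2 ± 18.7 and 10.9 ± 6.60 CPM. In the same libraries the summed host genes were lower in every deficient mouse and the Snord13 and Snord118 rows were higher in every one. How far these 2 rows follow the level of the mature snoRNAs was not tested.

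**Figure D5:**
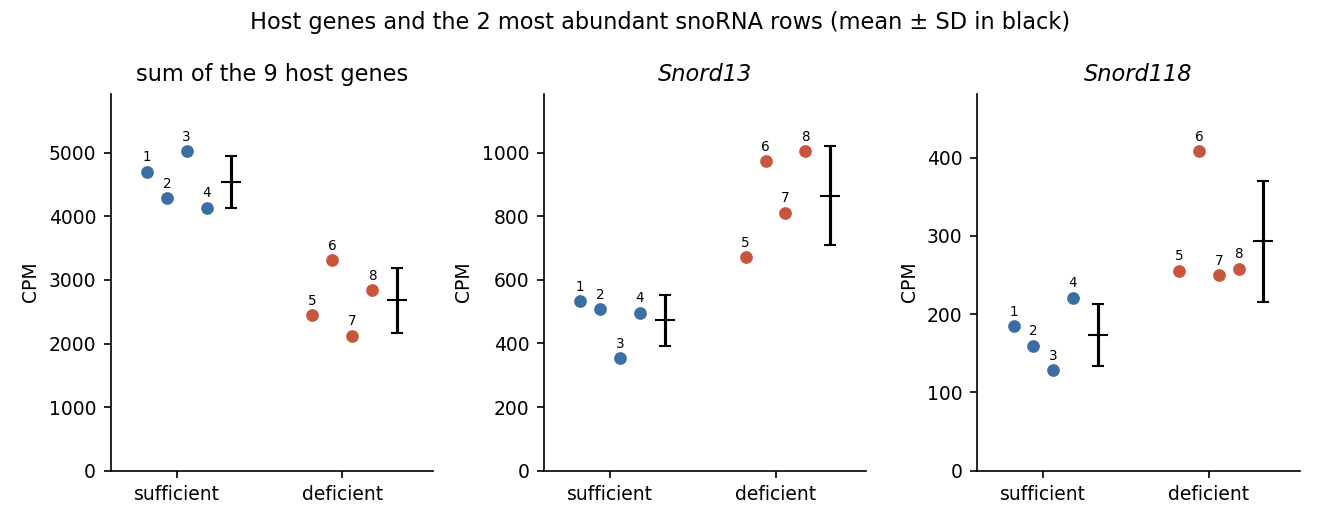
Sum of the 9 host genes, Snord13 and Snord118 in CPM (vertical axes from 0) in each library, numbered by replicate, with mean ± SD in black. The host gene sum is lower in all 4 deficient libraries and the 2 snoRNA rows, chosen after their values were seen, are higher in all 4.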

How the data were processed

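RNA of sorted cells from 8 mice was made into libraries with a low-input SMARTer cDNA kit (Clontech), as the labels' protocols say. CASAVA 1.8.2, STAR 2.3.0 and mm10 are named in the submitters' processing notes. The tool and annotation behind the counts, and their treatment of strand and multiple mapping, were not given in those sources. The authors deposited whole-number read counts for 27179 Entrez gene IDs, 25275 of which matched a symbol in the RefSeq table of GRCm38.p6, and the 1904 without one held 0.303% of counts. The comparison used edgeR's quasi-likelihood test in edgeR 4.0.16 under R 4.3.3, TMM factors, the filterByExpr filter (8878 genes) and Benjamini-Hochberg adjusted p under 0.05. The same test was run on simulated data, and the outcome of that run is not reported here. CPM were computed from the deposited counts on TMM-scaled totals of the tested genes. Alternatives were other scaling factors, DESeq2 1.42.0, limma-voom (limma 3.58.1), other filters and leaving out libraries. Members and gene lists were chosen with earlier results of these data known. All 9 members were named. From the other lists the rule named every tested noncoding host, coding neighbours within 10 kb, the 5 genes most like Snhg15, and otherwise the 2 genes with the smallest p, with further genes named for their groups' separation. Some results under this rule are not reported here. Groups came from the sample titles, which number the samples 1 to 8 and do not themselves mention mice.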

Additional observations from a re-analysis of the deposited data

Results flagged for a closer look

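Of 57 groups of 4 libraries examined for the members, other noncoding hosts, small RNAs and ratios, 6 held a library whose gap to the nearest of the others exceeded Dixon's 95% critical value, where chance gives about 1 in 20, or 2.85. Snhg1 was at 178 CPM in deficient replicate 6, with the nearest deficient library at 80.6 CPM. Snord118 was at 408 CPM in that same library, with the nearest at 258 CPM. In sufficient replicate 1 the ratio of Snhg15 to Snhg5 counts was 1.795, with the nearest at 1.29, and Rpph1 was at 38.9 CPM, with the nearest at 5.87 CPM. Snhg17 was at 18.7 CPM in sufficient replicate 3, with the nearest at 1.65 CPM. Epb41l4aos was at 32.3 CPM in deficient replicate 5, with the nearest at 8.85 CPM.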

How the results depend on the processing

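The log2 fold of Snhg15 stayed at -1.46 to -1.16 and that of Gas5 at -0.84 to -0.42 over the 18 alternatives (-1.46 to -1.25 and -0.82 to -0.53 with each library left out in turn). The adjusted p of Snhg15 ranged from 0.000361 to 0.975. DESeq2 called 2 members, Snhg15 (log2 fold -1.35, adjusted p 0.000361) and Snhg18 (log2 fold -26.1, adjusted p 2.49e-11, a value that rests on 2 libraries with counts), and 240 genes higher and 134 lower, against 0 and 0 in edgeR, where 364 genes had an unadjusted p under 0.05. The median log2 fold of all genes DESeq2 fitted, many of them below edgeR's filter, was -0.24, against 0.02 over the 8878 in edgeR. limma-voom called 0 and 0, with 775 at an unadjusted p under 0.05. With no filter 1 gene was higher and 1 lower. Among abundant genes alone (mean of 100 CPM or more), 1 was higher and 3 were lower (0.164%), and 1 member passed, Snhg15 (log2 fold -1.29, adjusted p 0.0192). In that set the adjusted p of Snhg15 stayed under the threshold without replicate 2, 4 or 6 (0.0482, 0.0355 and 0.00931). Leaving out single libraries gave 0 to 0 genes higher and 0 to 2 lower, the 2 without deficient replicate 6, and 0 to 0 members. The Snhg15 share ratio stayed at 0.642 to 0.735 over 14 alternatives. Those that changed only the scaling factors could not move it, since scaling cancels in a ratio within a library.

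Fitted values changed sign for Snhg8 (0.043, from -0.32) and Snhg12 (0.10, from -1.001) without sufficient replicate 1 and deficient replicate 6 together, Snhg3 without sufficient replicate 3 (0.085) or deficient replicate 5 (0.050, range -0.25 to 0.085 with each library left out), and Snhg6 without deficient replicate 6 (-0.049) or 8 (-0.0012, range -0.049 to 0.32). The cause was not tested. Snord13 passed in DESeq2 only (log2 fold 0.87, adjusted p 0.0330), and stayed at 0.77 to 1.07 over all alternatives. No paired analysis was possible because replicate numbers 1 to 8 are not shared between the groups. The choice of Snhg15 from this contrast, 4 mice a group and amplified cDNA limit what these p-values say.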
